A study of Mus musculus with 17 samples.

Results

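The 3 mice given OTV:Malat1 were compared with the 4 mice given saline, gene by gene and within each cell class, out of 17 mice in the series. Groups were taken from the labelled treatment, and classes from the cell type label that the authors deposited for each nucleus. Nuclear RNA from the posterior brain was counted in single nuclei. The labels give all 7 mice as females of 2.3 months with a homozygous knock-in of the human TfR, the transferrin receptor, so the saline animals carried the human receptor too. Dosing was intravenous, with 4 doses over 24 days, at 50 mg per kg in the OTV:Malat1 group, and brains were collected 72 hours later. The question was in which brain cells the conjugate lowered its target and whether other genes moved with it. Nothing tells which litters or cages the animals came from, so p-values measure the spread between these 7 mice and the 10 others in the fit. Those 10, with the same number of doses, were 6 mice given anti-TfR:Malat1 at 50 mg per kg and 4 given Malat1 ASO at 2 mg per kg.

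OTV stands for oligonucleotide transport vehicle, an antibody Fc fragment engineered to bind the human transferrin receptor and joined to an antisense oligonucleotide. The transferrin receptor sits on the endothelium of brain vessels, takes iron-loaded transferrin into cells by endocytosis, and is used as a route to carry proteins across the blood-brain barrier. An antisense oligonucleotide of the RNase H kind pairs with its RNA and lets that enzyme cut it in the nucleus. Malat1, the target here, is a long noncoding RNA that is held in nuclear speckles, the bodies where splicing factors gather, and it is abundant in nearly every cell type. It lies on the minus strand of chromosome 19, from 5795690 to 5802672 in GRCm38 (GENCODE M21), next to Neat1, the RNA scaffold of paraspeckles, at 5824708 to 5845478. The sequence of the oligonucleotide was not among the sources used here.

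The 7 animals gave 117526 of 284074 nuclei, 52308 from OTV:Malat1 and 65218 from saline. Each OTV:Malat1 library held 55393588 to 63587586 unique molecular identifiers (UMIs, counted RNA molecules) and each saline library 55833121 to 71138007. Of 115913 cell barcodes in the 7 libraries, 1596 occurred in more than 1 library. The deposited metadata named 4 batches, whose meaning was not given. Saline replicates 1 to 4 stood in batches 1 to 4 and OTV:Malat1 replicates 1 to 3 in batches 2 to 4, so batch 1 gave no within-batch value. In batch 4 the Malat1 share over all nuclei was the lowest of its group in both the OTV:Malat1 and the saline animal.

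The labels were checked against marker genes. Summed neuron markers stood at 12800 counts per 1000000 UMIs (CPM) in the nuclei labelled Neurons over the 7 animals. Oligodendrocyte markers stood at 14800 CPM in Oligodendrocytes, astrocyte markers at 8780 CPM in Astrocytes, microglia markers at 7080 CPM in Microglia and perivascular macrophage markers at 7070 CPM in Perivascular macrophages. Vascular cells held endothelial (3360 CPM), fibroblast-like (2330 CPM) and mural (1940 CPM) markers together, beside 2830 CPM of astrocyte markers. The label Neurons took in 7336 nuclei of deposited cluster 13, which carries markers of oligodendrocyte precursors. The seventh label, Glia, had 225 nuclei in the series, and 20 or more of them in only 1 OTV:Malat1 and 2 saline animals, so it was not fitted.

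Malat1 fell most in the oligodendrocytes, the cells that form myelin. It took 12%, 10.2%, 10.9% and 7.83% of their UMIs in saline replicates 1 to 4, and 1.90%, 1.61% and 1.5% in OTV:Malat1 replicates 1 to 3. The lowest saline animal, at 7.83%, stood far above the highest OTV:Malat1 animal, so the groups did not overlap. The means were 10.2% ± 1.75 (SD, n = 4) and 1.67% ± 0.205 (SD, n = 3), which put OTV:Malat1 at 16.3% of saline. In edgeR's quasi-likelihood fit the change was -2.72 on the log2 scale (SE 0.128, adjusted p 4.6e-10). Within batches 2, 3 and 4 the log2 ratio of the OTV:Malat1 to the saline animal was -2.43, -2.75 and -2.39.

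Astrocytes, which supply neurons with metabolites and line the vessels with their endfeet, came next. Malat1 took 12.6%, 9.27%, 9.85% and 6.72% of their UMIs in saline and 3.47%, 3.33% and 3.10% in OTV:Malat1. All 3 OTV:Malat1 animals lay below all 4 saline animals, at 34.3% of the saline mean. The change was -1.56 (SE 0.138, edgeR adjusted p 1.5e-08), and the log2 ratios within batches 2 to 4 were -1.42, -1.57 and -1.12. These values rested on 165 to 473 nuclei per animal.

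Both kinds of brain macrophage had less Malat1 as well. In microglia, the resident immune cells of the brain tissue, its share was 6.35%, 5.45%, 5.39% and 3.83% in saline and 3.55%, 3.29% and 3.06% in OTV:Malat1. The groups did not overlap, but the saline animal of batch 4 lay close to the OTV:Malat1 animals. The change was -0.67 (SE 0.0883, edgeR adjusted p 1.7e-04), with log2 ratios of -0.62, -0.71 and -0.33 within batches 2 to 4. In perivascular macrophages, which sit in the sheath around vessels, the share was 7.55%, 6.72%, 7.36% and 5.27% in saline and 3.62%, 4.14% and 3.85% in OTV:Malat1. The change there was -0.79 (SE 0.120, edgeR adjusted p 5.7e-04), with log2 ratios of -0.89, -0.83 and -0.45. It rested on 31 to 63 nuclei per animal and did not pass without the batch term (-0.83, adjusted p 0.22).

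In neurons and in vascular cells Malat1 did not pass the threshold of 0.05. Among nuclei labelled Neurons it took 7.37%, 6.37%, 7.54% and 4.31% of UMIs in saline and 4.58%, 4.76% and 3.49% in OTV:Malat1. Only 1 of 3 OTV:Malat1 animals lay below every saline animal, because saline replicate 4 stood at 4.31%. The difference was -0.63 (SE 0.136), with an edgeR p of 2.8e-04 before and 1.00 after adjustment over 20905 other genes. The log2 ratios within batches were -0.48, -0.66 and -0.30, below 0 in each. Malat1 had the lowest unadjusted p of all genes in the neuron fit. In vascular cells, the endothelial, mural and fibroblast-like cells of the vessels, the share was 11.8%, 9.99%, 10.8% and 8.27% in saline and 7.80%, 8.33% and 6.82% in OTV:Malat1. The groups overlapped, the difference was -0.35 (SE 0.149, edgeR adjusted p 0.827), and the ratios within batches were -0.36, -0.37 and -0.28.

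**Figure D1:**
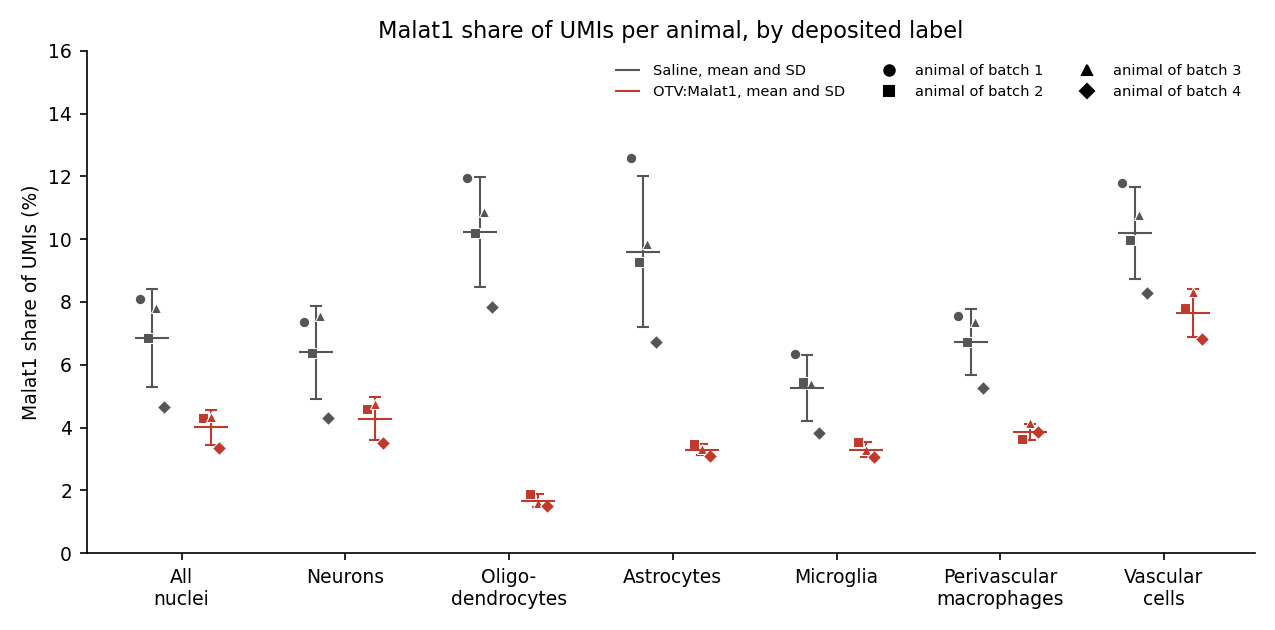
Malat1 share of UMIs in percent (vertical axis) in each of 7 animals, for all nuclei and for 6 deposited labels (horizontal axis); grey is saline, red is OTV:Malat1, marker shapes give the batch, and bars give the mean and SD over animals. The 3 OTV:Malat1 oligodendrocyte values sit between 1.5% and 1.90% while the 4 saline values sit between 7.83% and 12%, whereas the groups overlap in neurons and vascular cells.

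The exact two-sided permutation test of log2(CPM + 1), run on the single value for Malat1, gave p = 0.0571 in oligodendrocytes, astrocytes, microglia, perivascular macrophages and all nuclei. With 3 animals against 4 no smaller p can occur, so this test could not reach 0.05 in any label. It gave an exact p of 0.171 in neurons and 0.114 in vascular cells. In the sum over all nuclei Malat1 took 4.00% ± 0.572 (SD, n = 3) of UMIs in OTV:Malat1 and 6.85% ± 1.56 (SD, n = 4) in saline. The change there was -0.82 (SE 0.139), with an edgeR p of 2.7e-05 before and 0.583 after adjustment over 21374 other genes, the lowest unadjusted p of any gene.

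Whether the labels differed in the size of the change was tested by the interaction of label and treatment, in an edgeR fit with a term for each animal. The fall in oligodendrocytes exceeded that in neurons by -2.10 on the log2 scale (SE 0.0936, adjusted p 7.7e-14) and that in astrocytes by -1.19 (SE 0.151, adjusted p 2.7e-07). Astrocytes differed from neurons by -0.91 (SE 0.228), with an edgeR p of 6.8e-05 before and 0.0973 after adjustment over all genes. This difference thus did not pass, but it did when the nuclei that the authors called doublets were left out (-0.94, adjusted p 0.0194). Microglia differed from neurons by -0.10 (SE 0.26), perivascular macrophages by -0.16 (SE 0.681) and vascular cells by 0.19 (SE 0.623), each with an edgeR adjusted p of 1. The standard errors of the last 2 allow differences of more than 1 log2 unit in either direction, so these fits do not show that the labels responded alike.

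Fits inside 19 deposited clusters, added after the data had been seen, showed how even the change was inside a label. Each used only the nuclei that carried the most frequent label of its cluster. The oligodendrocytes of clusters 0, 2 and 15 changed by -3.01 (SE 0.145), -3.07 (SE 0.144) and -2.83 (SE 0.127), and OTV:Malat1 stood at 13.3%, 12.6% and 15.4% of saline in them. The change over the whole label, -2.72, was thus smaller than in any of its 3 main clusters. The astrocytes of cluster 14 changed by -1.60 and the microglia of cluster 11 by -0.55. Cluster 19 was not fitted, with 48 nuclei labelled Neurons and 42 labelled Astrocytes over all animals. In the 14 fitted clusters where the label Neurons was most frequent, values below 0 were found in each. They lay between -0.79 (SE 0.120) in cluster 4 and -0.30 (SE 0.261) in cluster 16, leaving aside cluster 13 with its precursor markers, at -0.25 (SE 0.103). Among the 14 only 4 and 17 passed (edgeR adjusted p 0.0369 and 0.0453), and the other 12 did not. With the Malat1 p adjusted over the 19 clusters in place of over all genes, 12 of the 14 were under 0.05 in edgeR, clusters 10 and 16 being the exceptions.

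**Figure D2:**
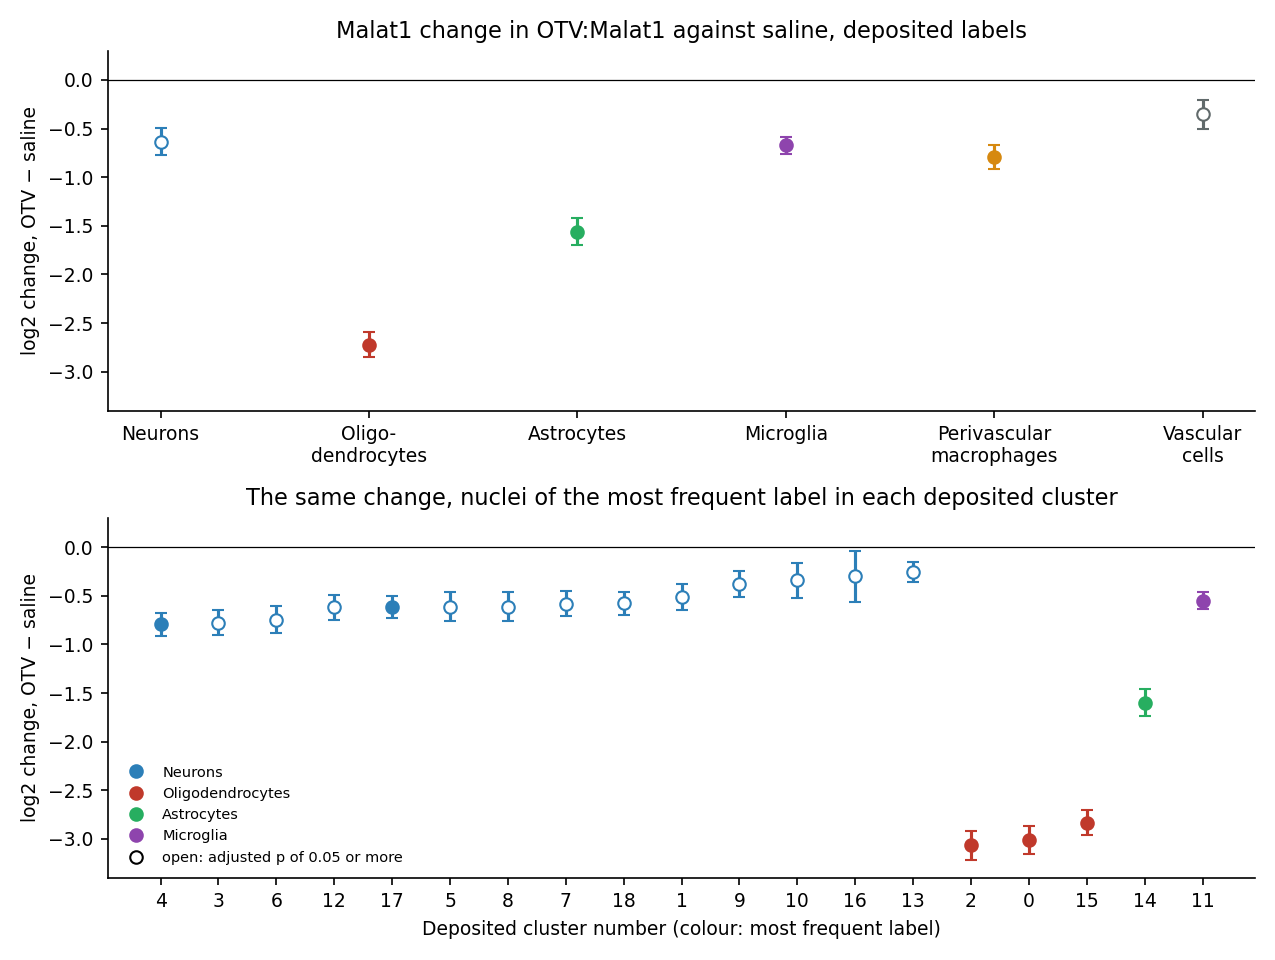
Log2 change of Malat1 in OTV:Malat1 against saline (vertical axes, with bars of 1 standard error from the edgeR fit) for 6 deposited labels (upper panel) and 19 deposited clusters (lower panel, using and coloured by the most frequent label of each); filled points passed an adjusted p of 0.05. In the lower panel oligodendrocytes lie between -3.07 and -2.83 and nuclei labelled Neurons between -0.79 and -0.25, the last in cluster 13, which carries precursor markers.

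The spread over single nuclei was compared after drawing 500 UMIs at random from each nucleus, so that depth was equal. All deposited nuclei had at least 500 UMIs, and none was left out. In oligodendrocytes the median nucleus held 58, 50, 53 and 38 Malat1 UMIs of 500 in saline replicates 1 to 4, and 7, 5 and 6 in OTV:Malat1 replicates 1 to 3. Most of the distribution lay lower: the 10th to 90th percentile ran from 34.5 to 70 in saline and from 2 to 13.3 in OTV:Malat1, as means over animals. The saline median of 50 was reached by 0.323%, 0.552% and 0.0798% of oligodendrocyte nuclei in the 3 OTV:Malat1 animals, and 1% of their nuclei on average reached the saline 10th percentile of 32. Few nuclei were at 0: 0.992%, 1.6% and 1.04% of oligodendrocytes had no Malat1 UMI among 500 in OTV:Malat1, and none of 18288 in saline. Without thinning those with no Malat1 UMI were 0.0875% in OTV:Malat1. The share at 0 differed by 1.21 percentage points (exact permutation p 0.0571, adjusted p 0.171 over 6 labels), and the raw value is the smallest possible. With 1000 UMIs drawn, which also left out the 5393 OTV:Malat1 and 3621 saline oligodendrocytes with fewer, it was 0.128 points. Free RNA in the droplets can add UMIs to any nucleus. No cell class here lacks Malat1 and could show that level, so its part in the remaining counts was not tested.

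In astrocytes the medians were 64, 47, 49 and 34 Malat1 UMIs of 500 in saline and 17, 15 and 14.5 in OTV:Malat1. The spread was wider than in oligodendrocytes, with a 10th to 90th percentile of 6 to 31 in OTV:Malat1, and 16.2% of nuclei on average reached the saline 10th percentile of 27. In microglia the medians were 31, 26, 26 and 19 in saline and 18, 17 and 15 in OTV:Malat1. There 58.3% of OTV:Malat1 nuclei on average reached the saline 10th percentile of 16, and in neurons 69.3% reached that of 15. The neuronal medians were 36, 30, 35 and 21 in saline and 21, 21 and 16 in OTV:Malat1, so saline replicate 4 had the same median as OTV:Malat1 replicates 1 and 2. In vascular cells the 10th percentile was 32.6 in saline and 16.8 in OTV:Malat1, while the 90th percentiles were closer, at 74.7 and 66.5. Perivascular macrophages had a mean of the medians of 32.2 in saline and 18.8 in OTV:Malat1.

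**Figure D3:**
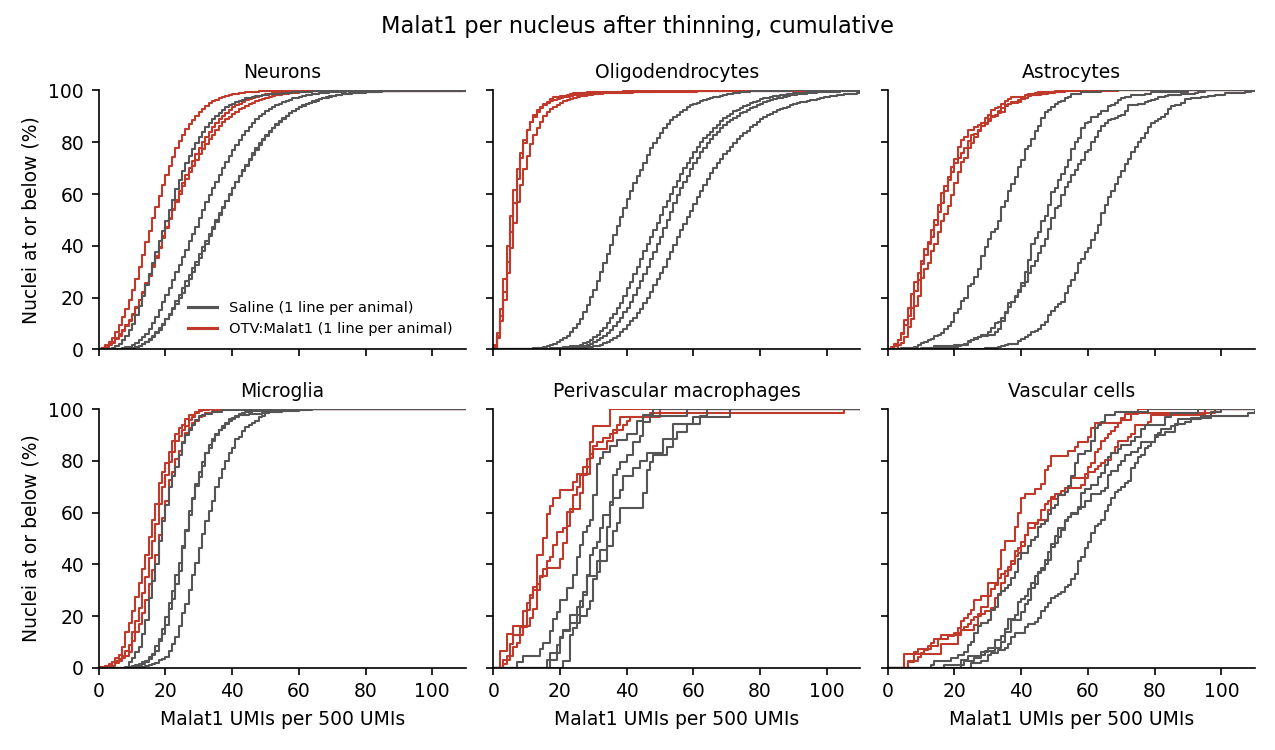
Cumulative share of nuclei in percent (vertical axes) by Malat1 UMIs among 500 drawn from each nucleus (horizontal axes), 1 line per animal, in 6 deposited labels; grey is saline and red is OTV:Malat1. The oligodendrocyte lines of the groups are apart over most of their length, with medians of 5 to 7 against 38 to 58, while the neuronal lines of saline replicate 4 and OTV:Malat1 replicates 1 and 2 run close together.

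Few other genes passed the threshold. In oligodendrocytes 2 of 14418 genes other than Malat1 passed the threshold, 0.0139% of those tested, and both were lower in OTV:Malat1. None passed in edgeR in any of the other 5 labels or in all nuclei. With unadjusted p under 0.05 there were 448 genes (2.14%) in neurons, 458 (3.18%) in oligodendrocytes, 407 (4.76%) in astrocytes, 375 (4.12%) in microglia, 53 (3.74%) in perivascular macrophages, 195 (5.89%) in vascular cells and 448 (2.10%) in all nuclei. DESeq2 called 1 gene in all nuclei (Saa3, 0.00468%), 1 in vascular cells (Dpp10, 0.0302%) and 0 in the other labels, oligodendrocytes included. Without the filter on low counts edgeR called 5 genes in oligodendrocytes (0.0206%), 21 in astrocytes (0.0978%), 3 in microglia (0.0144%), 1 in perivascular macrophages (0.0061%) and 19 in vascular cells (0.102%). The p-values of these unfiltered fits ran low. For Malat1 in astrocytes the edgeR adjusted p was 2.8e-90 at -1.55, against 1.5e-08 at -1.56 with the filter. Calls without the filter are thus not on an equal footing with the others. In the oligodendrocyte nuclei of clusters where that label is most frequent edgeR called 1 with the filter (0.00715%). In none of the 19 cluster fits did a gene other than Malat1 pass in edgeR. Genes at an unadjusted p under 0.05 ran from 50 of 2363 in cluster 16 to 619 of 14744 in cluster 3.

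The first of the 2 oligodendrocyte genes was Saa3, which encodes an acute-phase serum amyloid protein. Its TMM-scaled level in oligodendrocytes was 3.82, 3.10, 3.14 and 3.79 CPM in saline and 0.662, 0.562 and 1.35 CPM in OTV:Malat1, from 34, 26, 16 and 18 UMIs and from 4, 5 and 6 UMIs. The groups did not overlap, and the change was -1.96 (SE 0.324, edgeR adjusted p 0.0493). All 3 OTV:Malat1 animals were below all 4 saline animals for 242 of the 14418 oligodendrocyte genes (1.68%) and above them for 275 (1.91%). The shares below and above were 1.37% and 1.47% in neurons, 2.42% and 2.01% in astrocytes, 2.7% and 2.54% in microglia, 3.18% and 2.19% in perivascular macrophages, 3.2% and 3.11% in vascular cells, and 1.42% and 1.37% in all nuclei. Random order of 3 animals against 4 puts all 3 below in 1 of 35 regroupings, and all 3 above as often. A gap between the groups for a single gene thus carries little weight. Saa3 lay at 1.25, 1.39 and 1.03 CPM in OTV:Malat1 neurons and 2.02, 1.73, 2.40 and 2.11 CPM in saline neurons, again without overlap, a difference of -0.78 that did not pass (edgeR adjusted p 1.00). The Saa genes are close paralogs, and how the authors' counting divides reads among them is not stated in the sources used.

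The second was Slc35f2, a member of the solute carrier family. In oligodendrocytes it stood at 3.15, 3.46, 3.14 and 2.74 CPM in saline and 0.662, 1.01 and 0.898 CPM in OTV:Malat1, from 86 UMIs in 4 saline animals and 17 in 3 OTV:Malat1 animals. The groups did not overlap there (-1.82, SE 0.295, edgeR adjusted p 0.0493). In neurons the groups overlapped, with 4.03, 3.58, 5.00 and 3.69 CPM in saline and 3.73, 3.65 and 4.41 CPM in OTV:Malat1, a difference of -0.02 (edgeR adjusted p 1.00).

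Both calls were close to the threshold and did not hold in most of the other fits. Neither gene passed when any 1 of the 7 animals was left out, with the replicate block, in DESeq2, without the deposited doublets or in nuclei of 1000 or more UMIs. In those fits Saa3 stayed between -2.31 and -1.69 and Slc35f2 between -1.93 and -1.63.

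Saa3 UMIs were also set against Malat1 UMIs. Over all nuclei OTV:Malat1 had 30.8 Saa3 UMIs per 1000000 Malat1 UMIs (95% counting interval 26.9 to 35.2) and saline 31.6 (29 to 34.3). The group labelled Malat1 ASO had 29.2 (26.7 to 31.9), and 33.4 (31.1 to 35.8) was found with anti-TfR:Malat1. These intervals cover counting error only and overlap one another. In neurons the Saa3 ratio was 31.9 in saline (29 to 34.9) and 30.1 in OTV:Malat1 (26.1 to 34.5). The Malat1 ASO group had 30.1 there and the anti-TfR:Malat1 group 33.3. In oligodendrocytes the Saa3 ratio was 31.7 in saline (25.6 to 38.8) and 50.7 in OTV:Malat1 (28.4 to 83.6), the latter from 15 UMIs. It was 27.2 with Malat1 ASO and 35.5 with anti-TfR:Malat1. Slc35f2 in oligodendrocytes had a similar ratio, with 29 in saline (23.2 to 35.8) and 57.4 in OTV:Malat1 (33.5 to 91.9), the latter from 17 UMIs. In neurons it had 63.2 per 1000000 Malat1 UMIs in saline (59.2 to 67.4) and 95.3 in OTV:Malat1 (88.1 to 103), and single animals ranged from 55 to 83.6 and from 83.3 to 128, which just overlap. An annotated transcript of Saa3, Saa3-202, shares an identical stretch of 98 bases with Malat1, positions 578 to 675 of the 6983-base Malat1 transcript. It had rank 5 among 677 genes with 40 or more identical bases, while Slc35f2 shared no such stretch in its spliced transcripts. The 3 genes that share 102 bases, Ilf2, Mfsd4a and Tmem131l, differed by 0.01, -0.14 and 0.21 in oligodendrocytes. Over the 479 such genes tested there the median was -0.02, against 0.01 for the rest. The levels of these genes were not compared with the Saa3 level, so the values cannot show whether a shared stretch adds UMIs. The part of this shared sequence in the Saa3 counts was not tested.

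**Figure D4:**
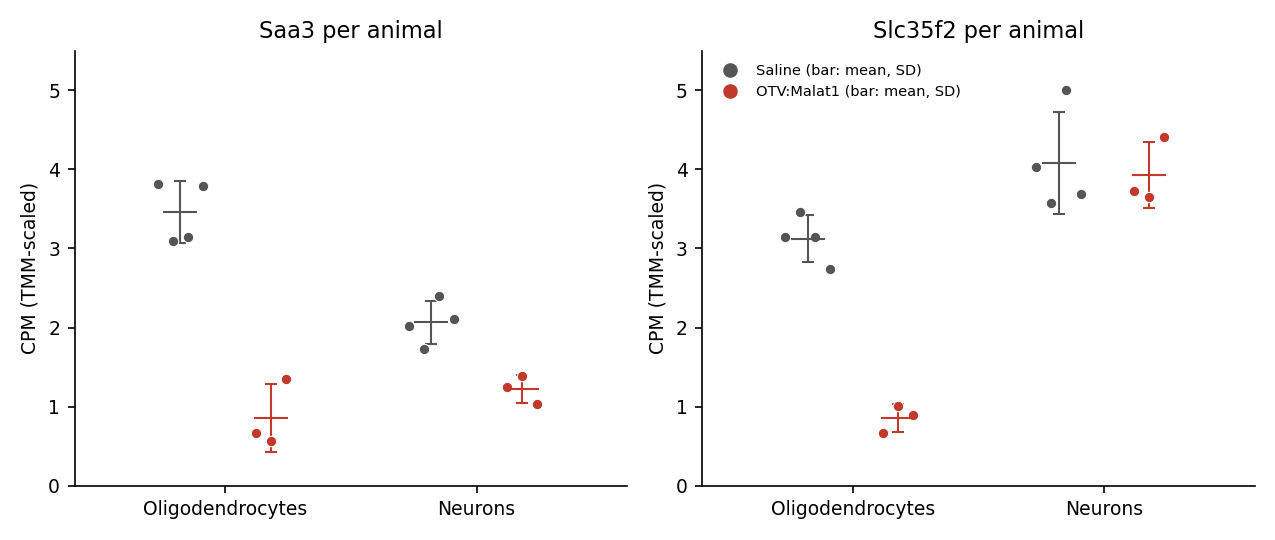
TMM-scaled level in CPM (vertical axes) of Saa3 (left) and Slc35f2 (right) in oligodendrocytes and neurons of each animal; grey is saline, red is OTV:Malat1, and bars give the mean and SD over animals. Both genes lie apart in oligodendrocytes, and in neurons Slc35f2 ranges from 3.65 to 4.41 CPM in OTV:Malat1 and from 3.58 to 5.00 CPM in saline.

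In astrocytes none of 8546 genes passed, and the lowest unadjusted p belonged to Pcdh15, a protocadherin, and Adarb2, an RNA-binding protein related to the RNA-editing enzymes. Pcdh15 stood at 71.0, 317, 236 and 306 CPM in saline and 137, 93.6 and 52.8 CPM in OTV:Malat1, a difference of -1.37 (edgeR adjusted p 0.125). Saline replicate 1 was the exception, at the level of the OTV:Malat1 animals. The same animal was low for Lhfpl3 (123 against 394, 375 and 400 CPM in the other saline animals), Dscam (69.3 against 272, 194 and 230 CPM) and Tnr (70.1 against 230, 282 and 217 CPM). These genes, named after their values were seen, were among the 5 of 8406 (0.0595%) that passed without saline replicate 1, all lower in OTV:Malat1. In the fit on the 7 animals alone 25 of 7455 genes passed (0.335%), all lower, and in the fit on batches 2 to 4 13 of 8315 (0.156%), all lower. No other animal of the 7 was in batch 1, so under the batch term saline replicate 1 adds nothing to the 7-animal contrast. All of these fits thus set that animal aside and are not separate evidence. With that animal kept, Pcdh15, Lhfpl3, Dscam and Tnr did not pass in the main fit. They passed without the filter on low counts (edgeR adjusted p 3.9e-10, 1.8e-08, 1.5e-05 and 1.4e-04), where p-values ran low as given above. In the interaction fits against neurons they passed too, and of them only Dscam did so without doublets. Summed markers of oligodendrocyte precursors in the astrocyte label moved like these genes, with 153, 473, 454 and 368 CPM in saline replicates 1 to 4 and 220, 288 and 147 CPM in OTV:Malat1. All 6 of those markers were detected. Tnr and Vcan are among the 6 and also among the genes that passed on the 7 animals. The sum is therefore not separate from those genes. Saline replicate 1 was also low in this label for neuron markers (499 CPM against 914, 1030 and 929 in the other saline animals, and 836 to 904 in OTV:Malat1) and for microglia markers (122 CPM against 284, 304 and 431, and 199 to 297 in OTV:Malat1). The part of these sums in the result was not tested.

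On the higher side in astrocytes, Zfand5, a ubiquitin-binding zinc finger protein, stood at 128, 121 and 158 CPM in OTV:Malat1 and 87.9, 63.4, 120 and 51.9 CPM in saline, and did not pass (0.78, edgeR adjusted p 0.708). Osbpl1a, an oxysterol-binding protein, was 208, 178 and 229 CPM in OTV:Malat1 and 166, 156, 130 and 148 CPM in saline, also without passing (0.49, edgeR adjusted p 0.708).

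In vascular cells none of 3311 genes passed in edgeR. The lowest p belonged to Lhfpl3, a gene of the oligodendrocyte precursor lineage, and Dpp10, a subunit of neuronal potassium channels. Lhfpl3 lay at 129, 219 and 244 CPM in OTV:Malat1 and 29.9, 30.3, 42.5 and 10.4 CPM in saline (3.13, edgeR adjusted p 0.226), from 48 and 13 UMIs. Dpp10 was uneven among the treated animals, at 765, 98.5 and 1080 CPM, against 65.8, 40.4, 127 and 198 CPM in saline (2.46, edgeR adjusted p 0.226). It passed in DESeq2 (2.56, adjusted p 0.0422), with the replicate block (2.70, edgeR adjusted p 0.012) and without OTV:Malat1 replicate 2 (3.23, edgeR adjusted p 5.6e-05), where 3 genes passed (0.0811%). In the fit on the 7 animals alone 7 genes passed in vascular cells (0.275%), 6 of them higher. Marker sums of other cell types in this label went both ways. Neuron markers summed to 1080 to 2560 CPM in OTV:Malat1 and 830 to 1900 in saline, oligodendrocyte markers to 1460 to 2100 and 858 to 1310, and precursor markers to 368 to 528 and 294 to 345, with every marker of these 3 lists detected. The last 2 sums did not overlap between the groups, while the neuron sums did. Markers of ependymal and choroid plexus cells were lower without overlap, at 17.5 to 73.7 CPM in OTV:Malat1 and 83.9 to 248 CPM in saline, with Folr1 and Ccdc153 of the 6 at 0. The part of these sums in the gene values was not tested.

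Among genes with lower values in vascular cells, Mef2a, a transcription factor, was 166, 186 and 261 CPM in OTV:Malat1 and 347, 353, 446 and 354 CPM in saline (-0.92, edgeR adjusted p 0.533). Nr4a3, an immediate early gene, had no UMI in the 3 OTV:Malat1 animals and 18, 7, 1 and 19 in saline, and did not pass (edgeR adjusted p 0.533). Ptgds, a prostaglandin synthase made by oligodendrocytes and meningeal cells, was higher on average at 6080, 5740 and 3260 CPM in OTV:Malat1 against 3600, 3540, 2390 and 3560 CPM, with overlap (0.70, edgeR adjusted p 0.73).

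The difference of each gene's change between labels was tested in the interaction fits. These took in many genes too weakly counted in the rarer label for its own fit. The label fits tested 8546 other genes in astrocytes, 3311 in vascular cells and 1417 in perivascular macrophages. Astrocytes differed from neurons for 12 of 20134 genes other than Malat1 (0.0596%), vascular cells from neurons for 11 of 19345 (0.0569%), oligodendrocytes from astrocytes for 3 of 15036 (0.02%) and perivascular macrophages from neurons for 1 of 19071 (0.00524%, Foxp2). Oligodendrocytes and microglia differed from neurons for none in edgeR, with 683 of 20186 and 696 of 20018 genes at an unadjusted p under 0.05. When the deposited doublets were left out the 12 became 2 of 19378, the 11 became 3 of 18521, the 3 became 1 of 14759 (Slc15a2) and the 1 became 0. In nuclei of the clusters where each label is most frequent the 12 became 10 of 19988 and the 3 became 5 of 14825.

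Microglia and perivascular macrophages showed no gene past the threshold besides Malat1. In microglia Stard7, a lipid transfer protein, was 71.1, 33.6 and 48.3 CPM in OTV:Malat1 and 25.9, 18.9, 17.7 and 23.8 CPM in saline (1.33, edgeR adjusted p 0.855), and Zeb1, a transcription factor, was 658, 568 and 670 against 584, 502, 473 and 481 CPM (0.35, adjusted p 0.995). Med12, a subunit of the Mediator complex, was lower at 4.59, 1.77 and 12.1 against 24.5, 22.4, 17.7 and 37.0 CPM, from 7 and 59 UMIs (-2.14, edgeR adjusted p 0.995). Senp3, a SUMO protease, was 16.1, 17.7 and 9.06 against 41.7, 30.7, 41.4 and 37.0 CPM (-1.28, edgeR adjusted p 0.995). In perivascular macrophages the lowest p belonged to Syt1, a synaptic vesicle protein of neurons, at 180, 203 and 288 CPM in OTV:Malat1 and 464, 304, 884 and 495 CPM in saline (-1.41, edgeR adjusted p 0.385). Neuron markers in that label summed to 927 to 1250 CPM in OTV:Malat1 and 1210 to 2350 CPM in saline, all 7 being detected. Syt1 is itself 1 of these 7 markers, so the sums include its own values. The part of neuronal RNA in its difference was not tested. Babam2 (-1.08), Enox2 (0.91) and Gm26740 (1.00) followed, each with an edgeR adjusted p of 0.744 or more.

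In neurons, the class with the most UMIs, no gene of 20905 passed and the differences were small, with a median absolute log2 value of 0.08. Malat1 itself, at 66.8% of the saline mean in this label, did not pass either. The lack of calls thus does not exclude differences of that size. Efna5, an ephrin ligand, was 376, 351 and 371 CPM in OTV:Malat1 and 361, 440, 477 and 435 CPM in saline (-0.29, SE 0.0617, edgeR adjusted p 1.00). Fzd8, a Wnt receptor, was 0.946, 1.25 and 0.799 CPM in OTV:Malat1 and 0.564, 0.544, 0.600 and 0.471 CPM in saline, with no overlap (0.89, edgeR adjusted p 1.00). Vtn, a mural cell gene, was 1.15, 1.17 and 0.351 against 0.444, 0.512, 0.441 and 0.287 CPM (1.05, edgeR adjusted p 1.00).

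Neat1, the neighbour of Malat1, was higher on average in OTV:Malat1 in 4 of 6 labels and passed in none. In oligodendrocytes, where it was most abundant, it stood at 1340, 1200 and 1090 CPM in OTV:Malat1 and 1160, 989, 1110 and 859 CPM in saline, with overlap (0.21, SE 0.116, edgeR adjusted p 0.983). In vascular cells it was lower without overlap, at 323, 306 and 296 against 652, 494, 531 and 365 CPM (-0.65, SE 0.386, edgeR adjusted p 0.885). Of the other genes near Malat1 on chromosome 19, 14 were tested in oligodendrocytes, 11 with positive and 3 with negative values and a median of 0.06, beside 0.01 for all genes there. In neurons 17 were tested, 5 with positive and 12 with negative values and a median of -0.06, beside 0.0019 for all genes, and in microglia 8 were tested, 5 positive and 3 negative. No gene of this list passed in any label.

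Tfrc, which encodes the transferrin receptor, was tested in neurons, oligodendrocytes and astrocytes. Whether reads from the human part of the knock-in allele were counted under this name was not given. In oligodendrocytes it was 8.60, 12 and 9.65 CPM in OTV:Malat1 and 12.3, 15.2, 12.2 and 12.4 CPM in saline, so that all treated animals lay just below all controls (-0.48, SE 0.196, edgeR p 0.0261 before and 0.983 after adjustment). In neurons it was 22.1, 23.1 and 22.8 against 26.8, 26.9, 21.7 and 27.5 CPM, with overlap (-0.18, edgeR adjusted p 1.00), and in astrocytes the difference was -0.17. Of the 11 genes of receptor cycling and iron handling tested in oligodendrocytes, 5 were positive and 6 negative, with a median of -0.05. The same list had 9 positive and 6 negative values in neurons (median 0.04), 9 and 1 in microglia (0.11), 5 and 3 in astrocytes (0.14), 3 and 1 in perivascular macrophages (0.22) and 4 and 1 in vascular cells (0.29). None of these genes passed in any label.

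Of 23 gene lists with 327 genes other than Malat1, 313 could be tested in at least 1 label, in 1197 tests over 6 labels. None passed the threshold in edgeR. An unadjusted edgeR p under 0.05 was found in 57 (4.76%), beside 2.14% (neurons) to 5.89% (vascular cells) of all genes by label. DESeq2 called 0 of its 1186 tests, with 38 under 0.05 before adjustment. Lists of proteins of the bodies and enzymes that handle nuclear RNA were read next. Nuclear speckle and SR splicing factors in oligodendrocytes had a median of -0.04 over 19 genes, with Srsf6 at 36.2, 24.6 and 27.6 CPM in OTV:Malat1 and 36.9, 37.6, 36.1 and 42.7 CPM in saline (-0.37, edgeR adjusted p 0.983). Paraspeckle proteins had a median of -0.03 over 12 genes there, and genes of RNase H and nuclear RNA decay one of -0.02 over 14, beside 0.01 for all genes. The lowest medians of these 3 lists were in perivascular macrophages, at -0.11 over 12 genes, -0.26 over 3 and -0.21 over 2, beside -0.0092 for all genes there.

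The other nuclear long noncoding RNAs had a negative median in every label, and none passed. In neurons 12 of 14 were negative (median -0.07, all genes 0.00), in oligodendrocytes 12 of 14 (-0.18, all genes 0.01), in astrocytes 10 of 12 (-0.23, all genes 0.00), in microglia 7 of 10 (-0.25, all genes 0.00), in perivascular macrophages 5 of 6 (-0.44) and in vascular cells 5 of 9 (-0.19). Without the batch term the vascular median was 0.04, and the other 5 stayed below 0. Snhg11, the host of small nucleolar RNAs that is rich in neurons, had the lowest p, in astrocytes, at 319, 325 and 356 CPM in OTV:Malat1 and 258, 415, 603 and 380 CPM in saline (-0.40, edgeR adjusted p 0.876). Negative medians were not particular to this list. Glucocorticoid-induced genes had them in every label, from -0.13 in microglia to -1.34 in perivascular macrophages (1 gene), with 12 of 12 negative in oligodendrocytes. Immediate early genes were negative for 14 of 15 in neurons and 4 of 4 in vascular cells, with a median of 0.0013 in astrocytes. No gene of these 2 lists passed.

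No myelin gene passed in the oligodendrocytes themselves, with 9 positive and 11 negative values and a median of -0.02. The median was above 0 in the other 5 labels. In neurons 15 of 20 were positive (median 0.19), in astrocytes 9 of 18 (0.06), in microglia 18 of 19 were positive (median 0.45), in vascular cells 12 of 13 (0.51) and in perivascular macrophages 5 of 6 (0.58), with none past the threshold. Oligodendrocyte markers in microglia summed to 1050 to 2230 CPM in OTV:Malat1 and 584 to 1610 CPM in saline, and in perivascular macrophages to 1550 to 3430 and 720 to 1880 CPM. All 6 were detected in both labels, and their part in these medians was not tested.

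Nuclear-encoded genes of the respiratory chain were positive in 14 of 14 in oligodendrocytes (median 0.18), 13 of 14 in microglia (0.29) and 11 of 14 in neurons (0.15), none past the threshold. They were positive in 8 of 13 in astrocytes (0.02), 8 of 10 in vascular cells (0.12) and 2 of 2 in perivascular macrophages (0.14). The medians of all genes lay between -0.0092 and 0.0136 in these labels. Homeostatic microglia genes had a median of -0.05 in microglia, with 4 positive and 8 negative, and activated microglia genes one of 0.11, with 4 positive and 2 negative. Interferon response genes, read as a sign of an antiviral response, had medians of -0.05 in neurons, -0.04 in oligodendrocytes and 0.09 in microglia. Ifit2 in neurons was 2.56, 2.90 and 3.12 CPM in OTV:Malat1 and 2.46, 2.40, 1.94 and 2.54 CPM in saline, a difference of 0.31 (edgeR adjusted p 1.00). The lysosomal and endocytic genes had a median of 0.05 in oligodendrocytes, where Cltb, a clathrin light chain, was 51.8, 66.7 and 50.3 against 49.1, 47.1, 50.1 and 36.2 CPM, just apart (0.33, edgeR adjusted p 0.983).

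The make-up of the nuclei was compared by exact permutation, which with 3 animals against 4 could not give a p below 0.0571 for any label. Neurons made up 68.1%, 63.1% and 72.7% of nuclei in OTV:Malat1 and 58.1%, 63.3%, 72.4% and 69.9% in saline. Oligodendrocytes made up 27% ± 4.45 (SD, n = 3) and 28.2% ± 5.27 (SD, n = 4). Microglia were at 2.60%, 2.63% and 2.27% in OTV:Malat1 and 3.51%, 4.21%, 2.98% and 2.50% in saline, a difference of -0.80 percentage points (exact permutation p 0.171, adjusted p 0.914), with differences of -1.61, -0.35 and -0.23 within batches 2 to 4. Without saline replicate 2 the microglia difference was -0.50 points. For the 7 labels the exact permutation p ranged from 0.171 to 0.914 and the adjusted p was 0.914 in each.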

How the data were processed

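The authors deposited 1 matrix of UMI counts per gene and nucleus with a metadata table, and mm10, Cell Ranger 6.0.1 and Seurat 4 are named in the submitters' processing notes. The sum of every nucleus equalled the deposited total. The cell type label, the cluster number, the doublet call and the batch are the authors'. No source used here says how the labels and doublet calls were made, and doublets (19490 of the 117526 nuclei) were kept in the main fits. 11 metadata columns were not used.

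Counts were summed per animal and label for animals with 20 or more nuclei. Weakly counted genes were dropped with filterByExpr and TMM set the library scaling. The model held group and batch over all 17 animals, in edgeR 4.0.16 (glmQLFit and glmQLFTest, R 4.3.3). P-values are two-sided and Benjamini-Hochberg adjusted over all genes of a label, with a threshold of 0.05. DESeq2 1.42.0 was an alternative. Single values were tested by exact permutation (scipy 1.17.1). The fit was run on simulated counts with known changes for neurons, oligodendrocytes, microglia and perivascular macrophages, drawn without batch differences. That run does not show how the fit behaves with batches. Levels are TMM-scaled CPM. Depth limits the rare labels most.

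The comparison, gene lists and tests were chosen with earlier results of these data known. Named genes were Malat1, Neat1 and Tfrc, up to 5 past the threshold each way per label, otherwise the 2 lowest p-values each way, and the lowest p of each list, except where the text says a gene was named after its values were seen. Marker lists for 11 cell types were read in every label.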

Additional observations from a re-analysis of the deposited data

Results flagged for a closer look

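Of 89 sets of 4 saline values examined, 9 held an animal far from the other 3, and chance alone sets apart about 1 in 20. Saline replicate 3 was low for Tfrc in neurons (21.7 CPM, others 26.8 to 27.5) and for Ptgds in vascular cells (2390 CPM, others 3540 to 3600), and high for Mef2a in vascular cells (446 CPM, others 347 to 354). Saline replicate 2 was high for Tfrc in oligodendrocytes (15.2 CPM, others 12.2 to 12.4) and for Gm26740 in perivascular macrophages (538 CPM, others 198 to 250). Saline replicate 4 was low for Gm38293 in all nuclei (0.295 CPM, others 0.551 to 0.593) and high for the haemoglobin gene Hbb-bs in vascular cells (1070 CPM, others 0 to 53.1). In that animal 0.00928% of neurons had no Malat1 UMI among 500, against 0 in the other 3. Saline replicate 1 was low for Lhfpl3 in astrocytes (123 CPM, others 375 to 400).

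The change in OTV:Malat1 against saline differed between labels in the interaction test for Malat1 and 27 other pairs of gene and labels, all below an edgeR adjusted p of 0.05. For Malat1, oligodendrocytes differed from neurons by -2.10 and from astrocytes by -1.19 on the log2 scale. Between astrocytes and neurons the differences were -1.73 for Adarb2, -1.26 for Pcdh15, -1.15 for Vcan, -1.09 for Lhfpl3, -1.08 for Dscam, -0.96 for Nxph1, -0.91 for Tnr and -0.90 for Lrrtm4. Those of Hpse2 (-4.23) and Cpne4 (-4.19) were the most negative, and Slc15a2 (1.12) and Tiparp (0.79) were positive. Large values in these fits can rest on few counts in the rarer label. Without deposited doublets Dscam and Hpse2 passed among these 12. Tnr and Vcan are in the precursor marker list, whose sum in astrocytes was 147 to 288 CPM in OTV:Malat1 and 153 to 473 CPM in saline. The part of precursor RNA in these differences was not tested. Between oligodendrocytes and astrocytes the differences were 1.17 for Pcdh15, 1.54 for Adarb2 and -1.35 for Slc15a2, of which Slc15a2 passed without doublets.

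Between vascular cells and neurons the differences were 4.32 for Arhgap15, 3.94 for Gm30382, 3.06 for Lhfpl3, 2.33 for Dpp10, 1.96 for Sgcz, 1.87 for Ctnna2 and 1.70 for Nnat. They were negative for Adamtsl1 (-1.76), Clic4 (-1.42), Bsg (-1.23) and Bnc2 (-1.17). Without doublets Bnc2, Adamtsl1 and Sgcz passed among these 11. Foxp2 differed between perivascular macrophages and neurons by -5.04, and did not pass without doublets. Some sums of markers of other cell types did not overlap between the groups within the vascular label, and their part in these differences was not tested.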

How the results depend on the processing

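The label fits, label differences, shares and zero counts were recomputed with 1 choice changed at a time, with 2 exceptions. Drawing 1000 UMIs also left out the nuclei with fewer, and DESeq2 changed the library scaling along with the test. The cluster fits, ratios to Malat1, marker sums and per-nucleus percentiles were not, and the label differences had 1 or 2 alternatives each. Malat1 kept its direction and its side of the threshold in all 19 alternatives in oligodendrocytes (-2.99 to -2.56), astrocytes (-1.73 to -1.43) and microglia (-0.79 to -0.55), and in all 20 in neurons (-0.73 to -0.54, never past). In perivascular macrophages it did not pass without the batch term (-0.83, adjusted p 0.22). In vascular cells it passed without the low-count filter (-0.45, adjusted p 0.00168). That setting also gave far smaller p-values for Malat1 in astrocytes, microglia and perivascular macrophages at a similar change, so this call carries little weight. In all nuclei Malat1 passed in DESeq2 (-0.82, adjusted p 2.8e-05), where 1 other gene passed too. With a replicate block in place of the batch term the Malat1 change was -2.87 in oligodendrocytes, -1.73 in astrocytes, -0.76 in microglia, -0.88 in perivascular macrophages, -0.69 in neurons and -0.45 in vascular cells, with no change of call. Deviations of same-numbered animals had correlations of 0.10, 0.51 and -0.44 and those of same-batch animals -0.09, 0.47 and 0.63, so neither was positive in every pair, and the numbers were taken as names only.

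Counts of other genes past the threshold were less stable, and the cause was not tested. The fits on the 7 animals alone and on batches 2 to 4 both set saline replicate 1 aside. In the first it is alone in batch 1 and adds nothing to the contrast. In oligodendrocytes the 2 became 0 with the replicate block, on the 7 animals alone, on batches 2 to 4, in DESeq2, without doublets, in nuclei of 1000 or more UMIs and in each fit without 1 animal, 5 without the filter and 1 in the clusters where the label is most frequent. In astrocytes 0 became 25 on the 7 animals alone, 13 on batches 2 to 4, 21 without the filter, and 0 to 5 without 1 animal (5 without saline replicate 1). In vascular cells 0 became 1 with the replicate block, 7 on the 7 animals alone, 1 in DESeq2, 19 without the filter and 0 to 3 without 1 animal (3 without OTV:Malat1 replicate 2). Without the filter microglia had 3 and perivascular macrophages 1.

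The astrocyte difference from neurons passed without doublets (-0.94, adjusted p 0.0194), and the microglia difference changed sign in the clusters where the label is most frequent (0.0031, adjusted p 1). Leaving out 1 animal, the difference in share of nuclei ran from -0.54 to 4.50 percentage points in neurons, -3.50 to 0.95 in oligodendrocytes, -0.18 to 0.54 in astrocytes, -0.046 to 0.034 in perivascular macrophages, -1.06 to -0.50 in microglia (-0.50 without saline replicate 2) and -0.19 to -0.053 in vascular cells (-0.053 without saline replicate 1). The difference in nuclei without Malat1 was 1.21 points in oligodendrocytes and 0.124 in neurons with 500 UMIs drawn, and 0.128 and 0.0117 with 1000 drawn from the deeper nuclei alone. Perivascular macrophages and vascular cells were the most frequent label of 0 clusters, so that alternative gave no value for them. In the cluster holding most of each, 11 and 14, Malat1 changed by -0.66 and -0.34, with no change of call. Perivascular macrophages gave no value with 50 or more nuclei per animal or 1000 or more UMIs. Few nuclei limit both labels.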
